A study of Mus musculus with 8 samples.

Results

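The Kv3 potassium channel genes *Kcnc1*, *Kcnc2* and *Kcnc4* were followed through 63 ChC and 63 Pv cells, single interneurons of mouse frontal cortex. They were found by gene name, and these 3 genes are among 23335 gene names in the table. Kv3 UMI below are the UMI of these 3 genes. Kv3 channels are tetramers that open only at depolarized voltages and close very quickly, which shortens action potentials and lets a neuron fire fast trains. They are best known from fast-spiking, parvalbumin-positive interneurons, in which subunits of different Kv3 genes can join in the same channel. *Kcnc1* (Kv3.1) and *Kcnc2* (Kv3.2) encode subunits of sustained currents, and *Kcnc4* (Kv3.4) a subunit of currents that inactivate.

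ChC are chandelier cells, whose synapses sit on the axon initial segment of pyramidal cells. Pv cells here are the cells labeled through the parvalbumin gene. ChC came from *Nkx2.1*-CreER; Ai14 mice given tamoxifen at E17.5 (embryonic day). Their Cre is driven by a transcription factor gene of interneuron progenitors and acts when tamoxifen is given. Pv cells came from *Pv*-ires-Cre; Ai14 mice, in which any cell that has expressed parvalbumin is labeled. Both lines carry the red fluorescent Ai14 reporter, no mouse received an experimental treatment besides the tamoxifen of the ChC line, and all were labeled wild type (WT) and female. ChC batches 1 and 2 came from animal 1 at postnatal day 31 and batches 3 and 4 from animal 2 at day 32, and Pv batches 5 and 6 from animal 3 at day 29 and batches 7 and 8 from animal 4 at day 35. A batch held 16 hand-collected cells, and 2 cells had no counts, and are not among these cells. The mouse line, the tamoxifen and the flow cell all changed with the cell type, and the part of each cannot be told apart.

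Transcripts were counted as UMI, tags that mark single molecules before amplification. Depth was 448121, 556405, 2460679 and 1123083 UMI for ChC batches 1 to 4, with a median of 33244 UMI per cell. For Pv batches 5 to 8 it was 392580, 430860, 316540 and 797177 UMI, with a median of 23248 UMI per cell. Levels are given as counts per 1000000 UMI of a batch (CPM), and no pair of cells had identical counts.

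The labels were checked against marker genes. *Slc32a1*, the vesicular GABA transporter, was the most abundant of the 11 interneuron markers. It and *Gad1* had a UMI in all 48 ChC and all 55 Pv cells compared at 10000 UMI per cell. Other markers of the list were found in fewer of these cells. *Gad2* had a UMI in 46 ChC and 38 Pv cells, *Lhx6* in 42 and 33, *Sox6* in 35 and 48, and *Satb1* in 8 and 46. *Pvalb* stood at 147, 196, 108 and 86.4 CPM in the ChC batches and at 1643, 764, 670 and 1217 CPM in the Pv batches. *Vip* was at 0 in every cell, and *Sst* and *Htr3a* had 1 and 3 UMI. *Nkx2-1*, the gene that drives Cre in the ChC line, ranged from 58.02 to 78.4 CPM in ChC and from 23.8 to 81.5 CPM in Pv batches, so it did not separate the cell types. Of the 5 pyramidal markers, 3 had UMI, with *Neurod6* and *Tbr1* at 0. Their summed level was 22.3, 295, 33.3 and 531 CPM in the ChC batches and 273, 532, 1049 and 102 CPM in the Pv batches, and *Camk2a* was the most abundant of them.

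Some libraries were high for Kv3 genes, and main levels are also given without them. *Kcnc1* was high in ChC batch 1 and Pv batch 8, *Kcnc2* was high in ChC batch 4 and Pv batches 6 and 8, and *Kcnc4* was seen in Pv batch 8 alone. Of these values, those of *Kcnc1* in ChC batch 1 and of *Kcnc4* lay beyond the limit for outlying values used below, and no *Kcnc2* value did.

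*Kcnc1* (mm9 chr7:53651867-53694074, plus strand) was abundant in both cell types. It stood at 904, 482, 409 and 419 CPM in the ChC batches, a mean of 553 ± 236 CPM (SD, n = 4). In the Pv batches it stood at 303, 339, 430 and 886 CPM, a mean of 489 ± 270 CPM (SD, n = 4). The ranges overlapped almost fully, and each type had a single batch well above its others. Of these, ChC batch 1 lay beyond the limit for outlying values and Pv batch 8 did not. Without batch 1 the ChC mean was 436 ± 39.6 CPM (n = 3), and without batch 8 the Pv mean was 357 ± 65.2 CPM (n = 3). Summed per animal, *Kcnc1* was at 670 and 412 CPM in the ChC animals and at 322 and 756 CPM in the Pv animals, so both ChC animals lay between the Pv animals. The fit over animals gave a log2 fold change (ChC over Pv) of 0.11 (SE 0.60, adjusted p = 0.999, edgeR). Its direction turned when animal 1 or animal 3 was left out (−0.34 and −0.28), and also without batch 1 or batch 7 (−0.17 and −0.10). No direction can be given for *Kcnc1*.

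*Kcnc2* (chr10:111708179-111903360, plus strand) had a lower mean level in ChC than in Pv, a difference that did not pass the test. It stood at 221, 257, 148 and 537 CPM in the ChC batches, with a mean of 291 ± 170 CPM (SD, n = 4). The Pv batches held 250, 1272, 420 and 948 CPM, with a mean of 723 ± 472 CPM (SD, n = 4). ChC batch 4 lay above Pv batches 5 and 7, so the cell types overlapped. The means differed 2.49-fold. The batches of a single animal differed 5.10-fold in animal 3 (250 against 1272 CPM), 3.63-fold in animal 2 (148 against 537 CPM), 2.26-fold in animal 4 and 1.16-fold in animal 1. Once its batches were summed, *Kcnc2* was at 241 and 270 CPM in the ChC animals and at 785 and 798 CPM in the Pv animals. The log2 fold change over animals was −1.59 (SE 0.54, unadjusted p = 0.0168, adjusted p = 0.649, edgeR). It was below 0 in all 20 alternatives that were run, from −2.06 to −0.31, and their adjusted p ranged from 0.304 to 1. Leaving out batch 6 gave −0.98 and a Pv mean of 539 ± 364 CPM, leaving out batch 8 gave −1.21 and a Pv mean of 647 ± 548 CPM (SD, n = 3), and leaving out batch 3, the deepest ChC batch, gave −0.94. Leaving out batch 4, the highest ChC batch, gave −1.95 and a ChC mean of 209 ± 55.6 CPM (SD, n = 3). Without both batch 6 and batch 8, chosen after their values were seen, the Pv mean was 335 CPM (n = 2) and the log2 fold change −0.31. These are the highest Pv batches, so leaving them out of 1 group alone lowers the difference by construction. With the batches as samples the adjusted p was 0.777.

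**Figure D1:**
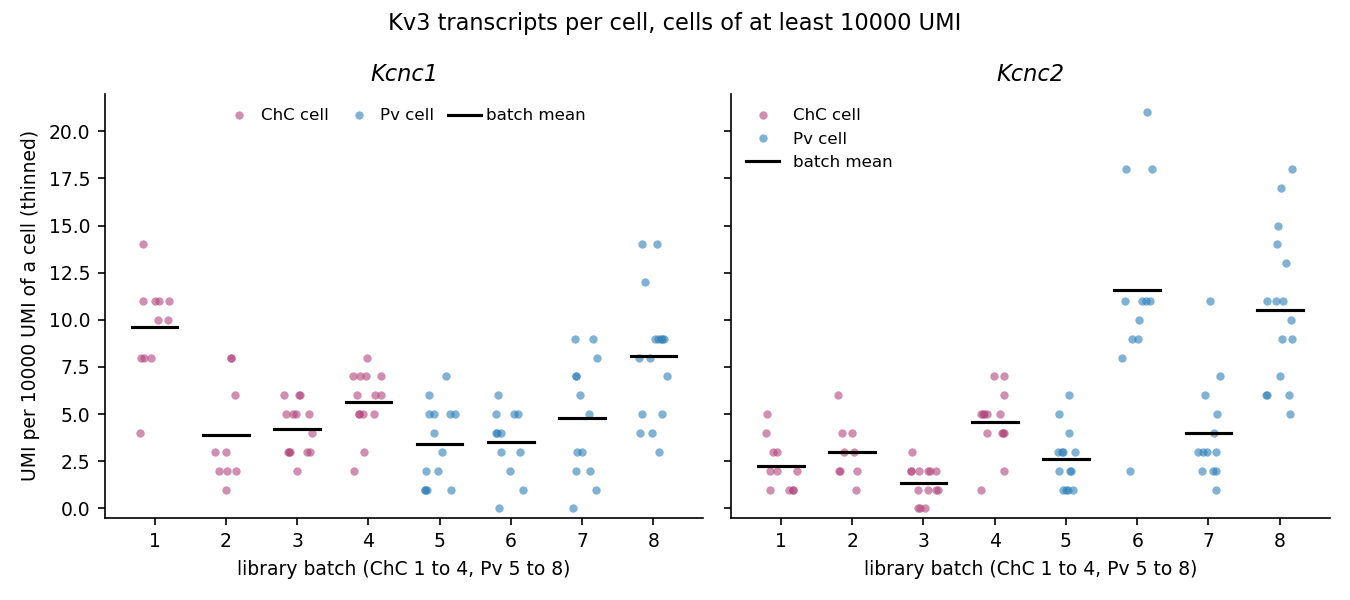
UMI of *Kcnc1* (left) and *Kcnc2* (right) per cell after each cell was thinned to 10000 UMI, by library batch. Each point is a cell (48 ChC and 55 Pv cells), spread sideways for legibility, and bars are batch means. *Kcnc2* means were 11.6 and 10.5 in Pv batches 6 and 8 and at most 4.57 in the other batches (batch 4, where 5.63 is expected of a draw), while the *Kcnc1* means of the cell types overlapped. The points are 1 random draw.

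*Kcnc4* (chr3:107241221-107261816, minus strand) was close to undetected. It had 4 UMI in all, 1 in each of 4 cells of Pv batch 8, and none in ChC. The 4 UMI correspond to 2.07 CPM over all Pv cells (95% counting interval 0.563 to 5.29 CPM), and 0 in ChC allows up to 0.654 CPM (3 counts over the group). The interval reaches below that limit, so a difference cannot be given at this depth. The Pv level rests on batch 8, without which *Kcnc4* was at 0 in Pv as well. After thinning, no cell held a UMI of *Kcnc4*, which allows a share of up to 6.25% of ChC and 5.45% of Pv cells with a UMI (3 counts of 48 and 55 cells, where the exact 95% intervals end at 7.40 and 6.49%). Unthinned, 4 of 63 Pv cells had one (6.35%, exact 95% interval 1.76 to 15.5%). The gene did not pass the filter on low counts, and without that filter its adjusted p was 0.8 (edgeR). The vascular marker *Rgs5* was also highest in batch 8 (120 CPM, against 18.95 CPM in batch 7 and 0 elsewhere). The endothelial markers *Flt1* and *Pecam1* were at 8.78 and 5.02 CPM in batch 8. Over all batches they ranged from 1.63 to 13.9 and from 2.32 to 12.6 CPM, and *Cldn5* was at 0. The summed level of the 4 vascular markers, 3 of them with UMI, was 13.4, 17.97, 6.50 and 16.9 CPM in the ChC batches and 5.10, 16.3, 41.1 and 134 CPM in the Pv batches. Its part in the *Kcnc4* level was not tested.

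Across all genes, the test over animals called none of 9681 genes (0%, edgeR with Benjamini-Hochberg adjustment at 0.05). At an unadjusted p under 0.05 it held 618 genes, 6.38% of those tested, and *Kcnc2* was among them and *Kcnc1* was not. DESeq2 called 174 genes, with adjusted p of 0.995 for *Kcnc1* and 0.493 for *Kcnc2*, and gave no adjusted p for *Kcnc4*. With the 8 batches as samples, edgeR called 6 genes, neither *Kcnc1* nor *Kcnc2* among them, and *Kcnc4* was not tested. Of the 9681 genes, 2.05% had all 4 Pv batches above all ChC batches and 2.21% the reverse, and neither *Kcnc1* nor *Kcnc2* was in either set.

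The balance of subunits was then described as the share of each gene in the Kv3 UMI of a batch. The batches held between 217 and 1466 Kv3 UMI, 844 ± 248 CPM in ChC and 1213 ± 610.4 CPM in Pv (SD, n = 4 each). Without batches 6 and 8, chosen as the highest Pv batches after their values were seen, the Pv mean was 701 CPM (n = 2), which with all ChC batches kept is no fair comparison of the cell types. *Kcnc1* made up 80.4, 65.2, 73.4 and 43.8% of Kv3 UMI in the ChC batches, a mean of 65.7 ± 15.9% (SD, n = 4). In the Pv batches it made up 54.8, 21.04, 50.6 and 48.2%, a mean of 43.7 ± 15.3% (SD, n = 4). ChC batch 4 was below 3 of the Pv batches, and the other ChC batches were above all of them. *Kcnc2* took up nearly all of the remainder, 34.3 ± 15.9% in ChC and 56.3 ± 15.3% in Pv, and *Kcnc4* at most 0.273%.

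The spread within an animal was large in animals 2 and 3. In ChC animal 2, the *Kcnc1* share was 73.4% in batch 3 (exact 95% interval 71.01 to 75.8%) and 43.8% in batch 4 (40.8 to 46.8%). In Pv animal 3 it was 54.8% in batch 5 (47.96 to 61.6%) and 21.04% in batch 6 (18.1 to 24.3%). The intervals cover counting error only, and in both animals they were far apart. The batches of animal 1 were at 80.4 and 65.2%, and those of animal 4 were close (50.6 and 48.2%). Over whole animals the share was 73.5 and 60.4% in ChC and 29.1 and 48.5% in Pv. These values did not overlap, but with 2 animals of each type that is frequent by chance. Its frequency over all genes was not counted. The share of an animal also weights its batches by their Kv3 UMI, and batch 6 held 694 of the 911 of animal 3. Without batch 4 the ChC mean of the batches was 73%, and without batch 6 the Pv mean was 51.2%.

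**Figure D2:**
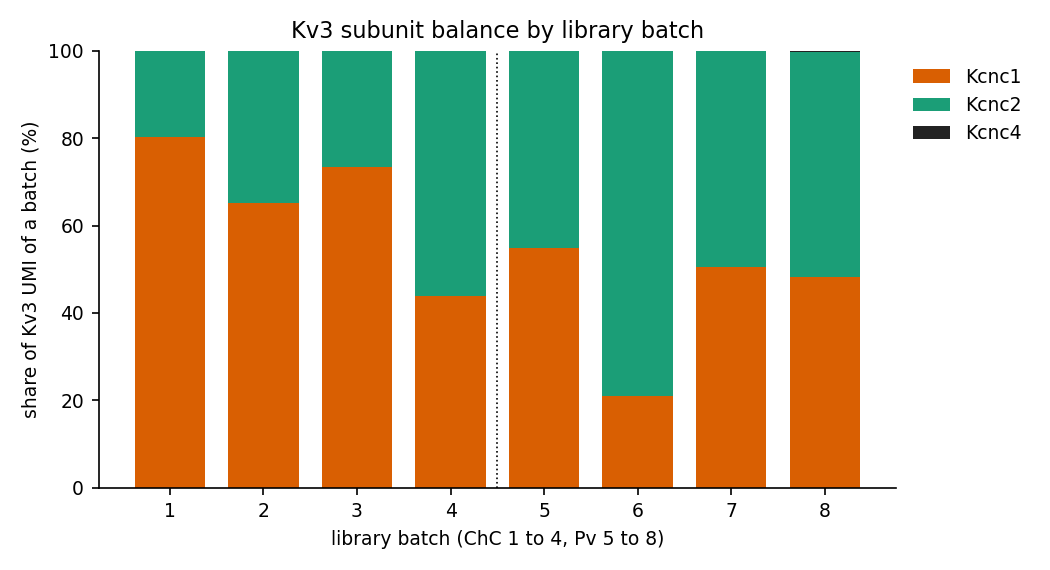
Share of each Kv3 gene in the Kv3 UMI of a library batch, in percent, with ChC batches left and Pv batches right of the dotted line. *Kcnc1* was over 60% of Kv3 UMI in ChC batches 1 to 3 and between 21.04 and 54.8% in batches 4 to 8, where *Kcnc2* made up nearly all of the remainder.

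UMI mark molecules, so the shares above need no length, and shares per length are given beside them as descriptions. Per kb of annotated exon (9.13 kb for *Kcnc1*, the union of the exons of its 3 annotated transcripts, which no single transcript holds, and 6.20 kb for *Kcnc2*), *Kcnc1* made up 73.5, 55.99, 65.2 and 34.6% of the Kv3 level in the ChC batches and 45.2, 15.3, 40.97 and 38.5% in the Pv batches. On this scale *Kcnc2* was above *Kcnc1* in ChC batch 4 and in every Pv batch. Per kb of the genomic span, in which introns are included (42.2 kb for *Kcnc1* and 195 kb for *Kcnc2*), *Kcnc1* made up between 55.2 and 94.98% in all 8 batches. That tags were counted over this span is inferred from the counts of nested transcripts, and was not checked otherwise. The ratio of *Kcnc1* to *Kcnc2* UMI, from 0.266 in Pv batch 6 to 4.09 in ChC batch 1, orders the batches alike on every scale. Which gene was higher changed with the scale in batches 4 to 8, while *Kcnc1* was higher on each scale in batches 1 to 3. Per exon kb, mean levels were 60.6 CPM for *Kcnc1*, 46.9 for *Kcnc2* and 0 for *Kcnc4* in ChC, and 53.6, 117 and 0.416 CPM in Pv. Without batches 6 and 8, chosen after their values were seen, the Pv means were 40.1, 54.05 and 0 CPM (n = 2). With all ChC batches kept, this is no fair comparison of the cell types. Over batches the ranges of *Kcnc1* and *Kcnc2* overlapped in either cell type, and the difference within batches was not tested. Both lay above *Kcnc4* in every batch.

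Single cells mostly held both main subunits. After thinning to 10000 UMI, which left out 15 ChC and 8 Pv cells, *Kcnc1* had a UMI in 48 of 48 ChC cells (exact 95% interval 92.6 to 100%) and 53 of 55 Pv cells (87.5 to 99.6%). *Kcnc2* had a UMI in 45 of 48 ChC cells (82.8 to 98.7%) and 55 of 55 Pv cells (93.5 to 100%). Without thinning the shares were 95.2 and 96.8% for *Kcnc1* and 88.9 and 96.8% for *Kcnc2*, in ChC and Pv respectively. Both genes were found together in 98 of 103 thinned cells, *Kcnc1* alone in 3 ChC cells of batch 3, *Kcnc2* alone in 2 Pv cells, and no thinned cell lacked both. Of all unthinned cells, 10 lacked either gene, and 9 of these had fewer than 10000 UMI. The exception was a Pv cell of batch 6 with 16147 UMI, which held 8 UMI of *Kcnc2* and none of *Kcnc1*.

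The order of the subunits within cells differed between batches and was taken from unthinned counts. *Kcnc1* had more UMI than *Kcnc2* in 14 of 16 cells of ChC batch 1, 14 of 16 of batch 2, 15 of 16 of batch 3 and 2 of 15 of batch 4. In Pv it had more in 10 of 16 cells of batch 5, 0 of 15 of batch 6, 7 of 16 of batch 7 and 5 of 16 of batch 8. Counted over cell types, *Kcnc1* was ahead in 45 of 63 ChC and 22 of 63 Pv cells, counts that combine cells of unequal batches. Thinned cells hold few UMI of either gene. In them *Kcnc1* and *Kcnc2* were each ahead in 4 of 9 cells of batch 2, *Kcnc1* in 8 and *Kcnc2* in 2 of 14 cells of batch 4, and *Kcnc1* in 8 and *Kcnc2* in 5 of 13 cells of Pv batch 7, where unthinned each gene was ahead in 7 cells. The random draw kept a mean of 5.64 *Kcnc1* and 4.57 *Kcnc2* UMI per cell of batch 4, where 4.02 and 5.63 are expected of a draw, so the thinned order of batch 4 is not relied on.

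The spread over cells was described over all thinned cells of a type and within batches. Over the cells of a type, *Kcnc1* ranged from 1 to 14 UMI per 10000 in ChC (median 5.5) and from 0 to 14 in Pv (median 5). *Kcnc2* ranged from 0 to 7 UMI in ChC (median 2) and from 1 to 21 in Pv (median 6). The medians of single batches lay between 3 and 10 in ChC and 3.5 and 8.5 in Pv for *Kcnc1*. For *Kcnc2* they lay between 1.5 and 5 in ChC and 2.5 and 11 in Pv. The ratio of variance to mean over thinned cells, which is 1 for independent counts, lay between 0.445 and 2.03 for *Kcnc1* and between 0.596 and 2.30 for *Kcnc2*, with the highest values in batch 7 for *Kcnc1* and in batch 6 for *Kcnc2*. The lowest *Kcnc2* ratio is that of batch 4 in the draw that is not relied on, and the lowest of the other batches was 0.636 (batch 3). With so few UMI per cell, the ratio is a coarse measure of spread. Spearman correlations of *Kcnc1* with *Kcnc2* over the 9 to 16 thinned cells of a batch ranged from −0.391 to 0.55, with a mean of 0.0605 over 8 batches. The lowest is that of batch 4 in the draw that is not relied on, and without it the range was −0.075 to 0.55 and the mean 0.125. Cells of a batch share library and animal, so these values are descriptions.

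The table gives *Kcnc1* by 2 transcripts that start within 29 bases of each other and end 5351 bases apart. The gene is known to be spliced into forms with different C termini, Kv3.1a and Kv3.1b. The shorter transcript, NM_008421, ends at chr7:53688723, at the end of its exon 2, whose 3′ UTR runs into an intron of the longer form. The longer transcript, NM_001112739, goes on through exons 3 and 4 (GENCODE chr7:53690528-53690716 and chr7:53692642-53693745) and ends at chr7:53694074, 329 bases past the GENCODE end. In every cell with counts the longer transcript had at least as many UMI as the shorter, so the shorter count was taken as contained in it, and the difference as UMI past the shorter end. A UMI before that end can come from either form, so this share does not measure isoform use. It also depends on this reading of the counts, and the authors' counting rule was not checked. Both ends carry the poly(A) signal hexamer AATAAA, which is shown in capitals in the last 30 bases of each transcript on the plus strand.
Shorter transcript end, chr7:53688694-53688723: tttatgAATAAAcctgattggtccatttct
Longer transcript end, chr7:53694045-53694074: cctggaAATAAAgagctgacttttgatctg
Of 26564 annotated transcript ends in the table, 47.7% held AATAAA in their last 30 bases, read on the strand of the transcript.

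The share of *Kcnc1* UMI past the shorter end differed strongly between batches. It was 18.8, 22.8, 58.9 and 27.5% in the ChC batches and 91.6, 86.3, 36.8 and 41.5% in the Pv batches. Pv animal 3 thus stood above all others in both of its batches, with exact 95% intervals of 85.1 to 95.9% and 79.6 to 91.4%, whereas Pv animal 4 lay within the ChC range. UMI before the shorter end varied more widely than those past it. They were at 734, 372, 168 and 304 CPM in ChC and at 25.5, 46.4, 272 and 518 CPM in Pv. UMI past the end stood at 170, 110, 241 and 115 CPM in ChC and at 278, 292, 158 and 368 CPM in Pv. Among cells with at least 5 *Kcnc1* UMI, the lowest cell of animal 3 was at 60% and its median cell at 87.5%, while the highest of the 26 cells of animal 4 was at 57.1%. The highest cells of ChC batches 3 and 4 were at 80 and 68.8%, so cells of animals 2 and 3 overlapped.

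The same share was taken for 67 other genes with a pair of transcripts that differ at the 3′ end. Their median was 80, 55.7, 72.9 and 70.9% in the ChC batches and 78.6, 75.2, 71.7 and 66.7% in the Pv batches. The medians of batches 5 and 6 were thus below that of batch 1 and above those of all other batches. A median does not show shifts of single genes, and a cause of the *Kcnc1* values was not tested. The range over batches was 72.8 percentage points for *Kcnc1* and 41.8 points for the median gene, and 14 of the 67 genes had a range at least as large as that of *Kcnc1*. This comparison was chosen after the *Kcnc1* values had been seen.

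**Figure D3:**
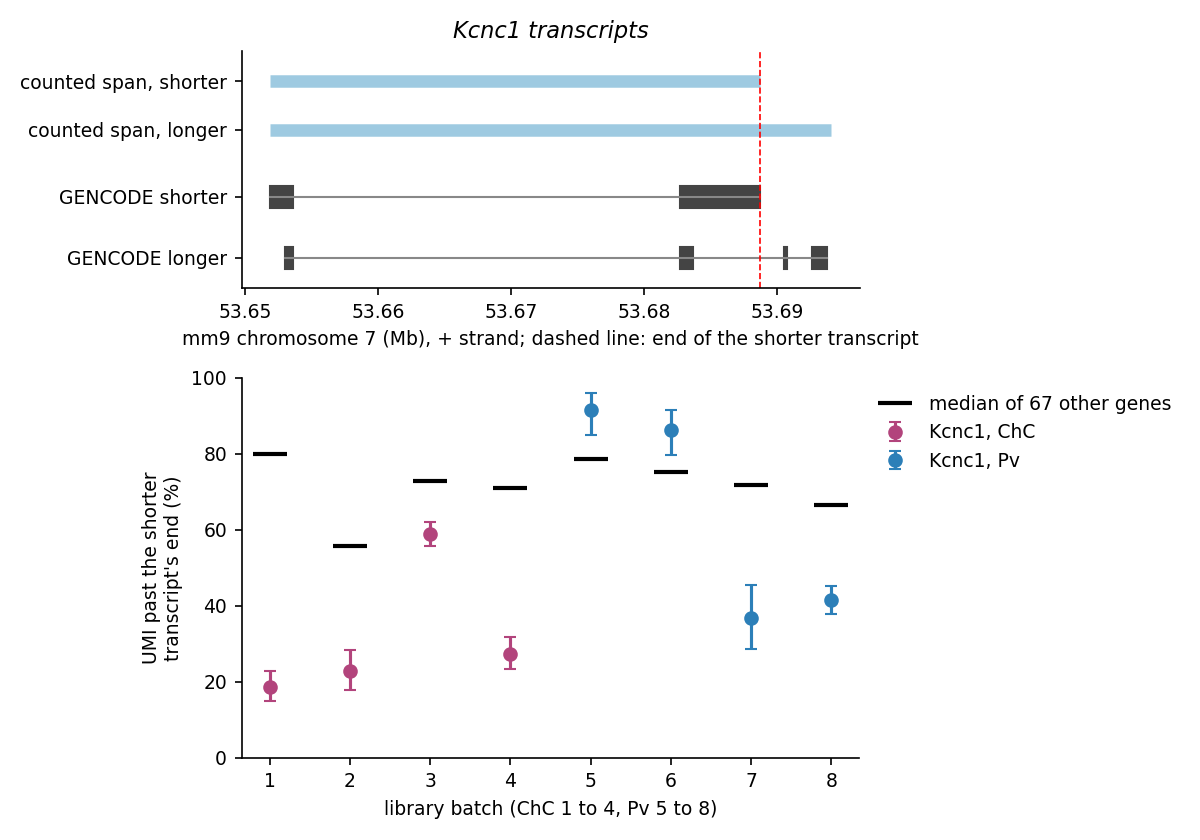
Top, *Kcnc1* on mm9 chromosome 7, with exons as dark boxes, introns as lines and the genomic spans of the transcripts as light bars. Bottom, percent of *Kcnc1* UMI past the end of the shorter transcript by library batch, with exact 95% binomial intervals, and the median of 67 other genes as black bars. *Kcnc1* was at 91.6 and 86.3% in batches 5 and 6 and at 58.9% or less in the other batches.

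Among voltage-gated potassium channels as a whole, *Kcnc1*, *Kcnc2* and *Kcnc4* took up 17.6 ± 3.74% of the UMI of 31 Kv pore subunit genes in the ChC batches and 24.2 ± 6.75% in the Pv batches (SD, n = 4 each). The values were 20.2, 19.1, 12.02 and 18.9% in ChC and 17.7, 30.4, 19.1 and 29.6% in Pv, and overlapped. Without batches 6 and 8 the Pv mean was 18.4% (n = 2). These are the highest Pv batches and were chosen after their values were seen. Leaving them out with all ChC batches kept lowers the Pv mean by construction, here and per kb of exon, and is no fair comparison of the cell types. Per kb of exon the Kv3 share of the summed level was 13.1 ± 3.65% in ChC and 17.4 ± 5.17% in Pv, or 13.1% in Pv without batches 6 and 8 (n = 2). On that scale *Kcnc2* ranked between 2 and 4 of the 31 genes in the Pv batches and between 2 and 11 in the ChC batches, and *Kcnc1* between 5 and 8 in Pv and between 3 and 7 in ChC. *Kcna2*, a low-voltage-activated axonal channel gene, ranked first in Pv batches 5 to 7, *Kcnd2*, an A-type channel gene, in ChC batches 1, 3 and 4, and the Kv7 genes *Kcnq1* and *Kcnq3* in batches 2 and 8 (named after their values were seen). By UMI, *Kcnc2* ranked 7, 8, 10 and 3 in ChC batches 1 to 4 and 6, 1, 3 and 1 in Pv batches 5 to 8, and *Kcnc1* ranked 2, 2, 3 and 4 in ChC and 4, 5, 2 and 2 in Pv.

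The other genes of the pathway were taken as lists. None of the 14 tested of 17 partners and regulators of Kv3 channels was called in either direction (edgeR over animals), and 2 had an unadjusted p under 0.05 (6.38% of all genes). Their median log2 fold change was −0.59, beside 0.05 for all genes tested. Among the 3 with the most UMI, *Prkce*, an isoform of protein kinase C, was at 444 ± 133 CPM in ChC and 643 ± 347 CPM in Pv. *Kif5c*, a kinesin heavy chain, was at 253 ± 142 and 877 ± 461 CPM, and the ankyrin gene *Ank3*, which anchors channels at the axon initial segment, at 407 ± 189 and 485 ± 122 CPM (SD, n = 4). All Pv batches were above all ChC batches for *Kif5c* and *Fmr1* (named for this after their values were seen), beside 2.05% of all genes, and the reverse held for none. The accessory subunit genes *Kcne1*, *Kcne2* and *Kcne3* had no UMI in any cell.

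Of 14 other fast-spiking genes, 13 were tested and none was called by edgeR over animals, with 5 at an unadjusted p under 0.05 (6.38% of all genes) and a median log2 fold change of −1.37 (0.05 for all genes). Without the filter on low counts *Pvalb* (edgeR, adjusted p = 0.00407) and *Kcna2* (0.0378) were called, beside 84 of all 16531 genes. All Pv batches were above all ChC batches for 5 of the 13, namely *Pvalb*, *Kcna2*, *Kcnab2*, *Kcns3* and *Syt2* (named after their values were seen), beside 2.05% of all genes, and the reverse held for none. *Kcnc1* and *Kcnc2*, whose batches overlapped, were not among them. By contrast, the complexin gene *Cplx1* (1702 ± 548 CPM in ChC, 2732 ± 880 CPM in Pv), the sodium channel gene *Scn1a* (441 ± 263 and 446 ± 49.8 CPM) and *Kcnab1*, a beta subunit gene of Kv1 channels (299 ± 199 and 541 ± 155 CPM), the 3 with the most UMI, overlapped between the cell types. *Kcns3*, a silent subunit that joins Kv2 channels, stood at 2.23, 17.97, 25.6 and 19.6 CPM in ChC and at 35.7, 127.7, 265 and 223 CPM in Pv. Pv cells were labeled through the parvalbumin gene, so *Pvalb* is no independent measure of the difference.

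Of the 36 other Kv pore genes, 21 were tested, 10 with a log2 fold change above and 11 below 0. None was called by edgeR over animals (without the filter on low counts, *Kcna2* was, beside 84 of all 16531 genes). The median of the 21 was −0.49, beside 0.05 for all genes, and 7 of them had an unadjusted p under 0.05, beside 6.38% of all genes. The 3 with the most UMI were *Kcnd2* (1162 ± 474 CPM in ChC and 349 ± 239 CPM in Pv), *Kcnh7*, an ERG-type channel gene (500 ± 142 and 223 ± 177 CPM), and *Kcna6* (209 ± 204 and 555 ± 563 CPM), each with overlapping batches. All Pv batches were above all ChC batches for *Kcna2* and *Kcns3*, also counted above, and below them for *Kcnh6* (274 ± 105 and 39.4 ± 24.02 CPM), which was named after its values were seen. Of all genes, 2.05% and 2.21% did so.

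The genes most like each Kv3 gene over cells were found by the mean within-batch Spearman correlation of thinned UMI, over 8 batches and 103 cells, among 2096 genes. For *Kcnc1* they were *Eif5* (0.395, range over batches 0.161 to 0.781), *Man1c1* (0.345, −0.204 to 0.807) and *Ssb* (0.343, 0.0914 to 0.655). For *Kcnc2* they were *Cttnbp2* (0.356, −0.0429 to 0.768), *Atxn7l3* (0.319, 0.07 to 0.591) and *Dnajc6* (0.307, −0.255 to 0.635). The median gene was at 0.0078 with *Kcnc1* and 0.00921 with *Kcnc2*. The genes had few UMI per cell and were the highest of many, so the values are descriptions only. *Pvalb* was at −0.105 with *Kcnc1* and at 0.0787 with *Kcnc2*. No gene was compared with *Kcnc4*, which had no UMI after thinning.

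The other marker lists varied between batches. The summed astrocyte level (4 of 5 markers with UMI, mostly *Slc1a3*, with *Gfap* at 0) ranged from 6.96 to 310 CPM over batches. That of the oligodendrocyte lineage (4 of 6, mostly *Mbp*, with *Mag* and *Cspg4* at 0) ranged from 2.32 to 111 CPM, and that of microglia (4 of 5, mostly *P2ry12*, with *C1qa* at 0) from 0 to 87.3 CPM. Batch 4, the ChC batch with the highest *Kcnc2* level, had the highest summed level of the astrocyte and microglia lists, and batch 7 that of the pyramidal list, while Pv batch 6, with the most *Kcnc2*, was at 6.96 CPM for both astrocytes and microglia and at 532 CPM for the pyramidal list, about the 531 CPM of batch 4 and behind batch 7 alone. Their part in the Kv3 levels was not tested.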

How the data were processed

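Poly(A)-primed, tag-labeled RNA of single ChC and Pv cells was measured. The authors aligned reads to mm9 with Bowtie 0.12.7, counted reads of a gene with the same tag once, and deposited these counts unnormalized, for 27207 transcripts and 128 cell columns, of which 2 hold no count. Genomic spans of the transcripts come from the same deposited table (other columns).

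Transcripts of a gene overlap: in 3055 of 3061 pairs with a span inside the other, the containing transcript was not lower in any cell. The transcript with the most UMI was therefore used per gene, so that no molecule counts more than once. This departs from the planned sum of distinct transcripts and was chosen after the counts were seen, before any fit. *Kcnc1* is the Kv3 gene it touches: the sum gives a log2 fold change of 0.36 in place of 0.11.

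UMI were summed per animal (2 against 2) and tested with edgeR 4.0.16 in R 4.3.3 (quasi-likelihood, TMM, filter on low counts, Benjamini-Hochberg, 0.05), with DESeq2 1.42.0 as an alternative. Cells were thinned by drawing 10000 UMI (5000 as an alternative), and cells with fewer were left out. Intervals of shares are exact (Clopper-Pearson, 95%), and the 95% counting interval of the *Kcnc4* level is that of a Poisson count. The 67 genes used beside *Kcnc1* have transcripts that end at least 1 kb apart, start within 1 kb, and have at least 20 UMI in every batch. Exons are from GENCODE M1 on NCBIM37, which is mm9. Python 3.11.15, numpy 2.4.6, pandas 2.3.3, scipy 1.17.1 and matplotlib 3.10.9 were used.

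Genes named are *Kcnc1*, *Kcnc2* and *Kcnc4*, of each list the members past the threshold or else the 3 with the most UMI, and for each member the 3 genes most alike over cells among those with a UMI in at least 50% of thinned cells. Members and lists were chosen with earlier results of these data known. Some genes of the planned lists are not reported here, and counts, shares and named genes are over the others.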

Additional observations from a re-analysis of the deposited data

Results flagged for a closer look

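In 12 groups of 4 batches, the value farthest from the others was compared with the range of its group, and 3 values lay beyond the limit that chance passes in about 1 in 20 groups. *Kcnc1* stood at 904 CPM in ChC batch 1, and the other ChC batches at 409 to 482 CPM. *Kcnc4* stood at 5.02 CPM in Pv batch 8, or 0.273% of its Kv3 UMI, and at 0 in every other batch, values that come from the same 4 UMI. With the other batches at 0, a lone UMI would also lie beyond the limit, so nothing more is read from it. Batch 8 is the deepest Pv batch, and the part of depth in these values was not tested.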

How the results depend on the processing

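The count of genes called between ChC and Pv, 0 of 9681 with edgeR over animals, was the least stable value. It was 174 with DESeq2, 84 without a filter on low counts, 6 with batches as samples and 1 with cells thinned to 10000 UMI. It ranged from 0 to 96 when a single animal or batch was left out, with 96 without animal 4, 60 without animal 2, 15 without animal 1 and 14 without animal 3. A group with a lone animal is then assumed to vary like the other. The causes were not tested. It stayed at 0 with the sum of distinct transcripts, the plain sum, cells of at least 10000 UMI, and without Pv batches 6 and 8.

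The *Kcnc1* log2 fold change of 0.11 ranged from −0.34 to 0.66 over left-out animals and batches, turning to −0.34 without animal 1, −0.28 without animal 3, −0.17 without batch 1 and −0.10 without batch 7. It was not called in any of the 20 alternatives. That of *Kcnc2* was −1.59 and ranged from −2.06 to −0.94 over left-out animals and batches, below 0 and not called in any alternative. Without Pv batches 6 and 8 together, an alternative added after their values were seen, it was −0.31. *Kcnc4* passed no filter on low counts in the fit over animals, so its fold change has no main value. Mean subunit shares moved by less than 1 SD in every alternative. That SD is taken over the same 4 batches, so leaving batches out could not have moved a mean by 1 SD. For those alternatives the count as not moved is therefore no sign of stability. The sum of distinct transcripts, which was the planned value and is an alternative here, put the *Kcnc1* share at 75.5% in ChC and 50.5% in Pv. Of 117 alternative values, 4 turned, all of the *Kcnc1* log2 fold change, 15 were counted as moved and 98 as not moved. These 98 are not all close to their main value. They include the *Kcnc2* log2 fold change of −0.31 beside −1.59, and *Kcnc4* in 6.35% of unthinned Pv cells beside 0 after thinning. With thinning to 5000 UMI, the shares of cells with a UMI were 87.3 and 83.6% for *Kcnc1* and 67.3 and 91.8% for *Kcnc2* in ChC and Pv. That setting also took in shallower cells (55 ChC and 61 Pv cells), and the part of depth alone was not tested. The transcript with the most UMI, planned as an alternative, became the value reported. No paired analysis was possible because each animal and batch held 1 cell type.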
